A study of Mus musculus with 4 samples.

Results

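The barcodes described here are those in which fewer than 40 genes of the panel had a read and the total was at most 59300 reads. They were chosen by the number of genes detected and the number of reads, and they are called low cells below. They number 5674 of the 21172 barcodes in the 4 libraries, against 13820 kept cells with 40 or more genes and at most 59300 reads. The other barcodes had more than 59300 reads, and none of those had fewer than 40 genes. Because the number of genes chose the low cells, every value set beside the kept cells is a description and carries no test.

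Single cells of the right hemisphere, taken without the olfactory bulb and the cerebellum, were profiled with a targeted panel of 397 genes, most of them immune genes, on the BD Rhapsody platform, which captures single cells with barcoded beads in microwells. The cells came from 2 Abi3-/- and 2 Abi3+/+ male mice aged 9 months, with 1 library per mouse, and all 4 mice carried the 5XFAD transgenes, which express mutant human amyloid precursor protein and presenilin in neurons from elements of the mouse Thy1 gene and lead to amyloid plaques. In the Abi3-/- mice the Abi3 locus was deleted in every cell, so a difference cannot be assigned to its loss in 1 cell type. The study's mice also carried 1 copy of a natural Trem2 variant of the SJL strain, in both genotypes. Brains were perfused, dissociated in Accutase in the cold and passed over myelin removal beads, with no sort for a cell type. Abi3 itself is not in the panel, so the genotype rests on the labels alone. The mice are named in the order Abi3-/- mouse 1, Abi3-/- mouse 2, Abi3+/+ mouse 1 and Abi3+/+ mouse 2, and 4 values without names follow that order.

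A lower limit on detected genes is meant to remove empty wells and damaged cells, but a panel of immune genes also reads few genes in cells that are not immune cells. Microglia, the resident macrophages of the brain, express Trem2, C1qa, C1qb and Cx3cr1. T cells carry Cd3e, B cells Cd79a, neutrophils S100a8 and infiltrating monocytes Ccr2. Astrocytes, ependymal cells, neurons, oligodendrocytes, endothelium and red cell precursors carry few panel genes.

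The number of genes per barcode had 2 maxima in every library, and the limit lay near the minimum between them. The lower maximum was at 10 to 14 genes in all 4 mice, with 249, 353, 586 and 385 barcodes. The upper maximum was at 80 to 84 genes in 3 mice and at 75 to 79 genes in Abi3+/+ mouse 2. Between them the fewest barcodes fell at 45 to 49 genes in Abi3-/- mouse 1, with 23 barcodes, and at 40 to 44 genes in the other 3 mice, with 103, 73 and 70 barcodes. Abi3-/- mouse 2 had 103 barcodes at 45 to 49 genes as well.

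**Figure D1:**
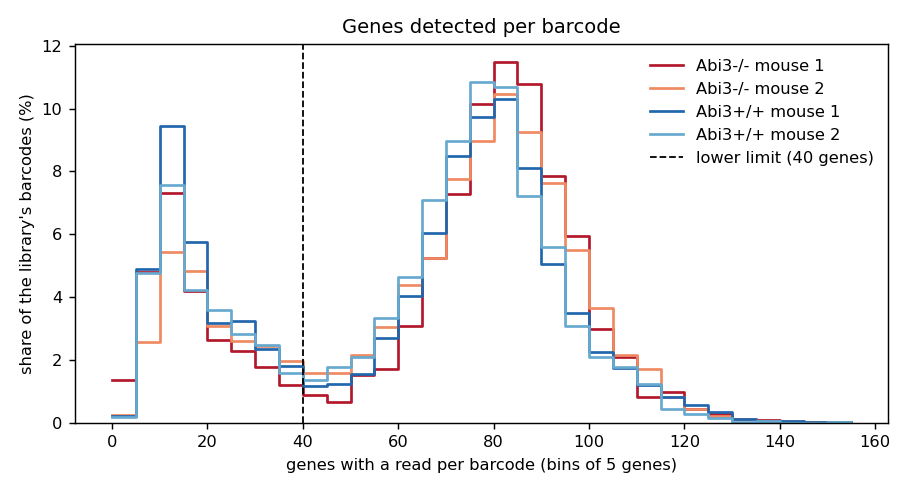
Share of each library's barcodes (y axis, percent) by the number of genes with a read (x axis, bins of 5 genes), with 1 line per mouse, all barcodes included. All 4 lines have a lower maximum at 10 to 14 genes and few barcodes around the dashed limit at 40 genes.

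The low cells were 870 of 3405 barcodes in Abi3-/- mouse 1, which is 25.6% (95% Clopper-Pearson interval 24.1 to 27.1%). They were 1502 of 6476 in Abi3-/- mouse 2, which is 23.2% (22.2 to 24.2%). In Abi3+/+ mouse 1 they were 1917 of 6204, 30.9% (29.8 to 32.1%), and in Abi3+/+ mouse 2 they were 1385 of 5087, 27.2% (26.0 to 28.5%). Both Abi3-/- libraries thus had a smaller share than both Abi3+/+ libraries. The mean was 24.4% ± 1.67 in the Abi3-/- and 29.1% ± 2.60 in the Abi3+/+ mice (SD, n = 2 each), a difference of -4.69 percentage points with p = 0.333 in a 2-sided exact permutation test. That is the smallest p that this test can give with 2 mice against 2, so a difference of any size could not pass a threshold of 0.05 in it. Without Abi3+/+ mouse 1 the difference was -2.85 points. The intervals cover counting error within a library and not the spread between mice.

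The low cells had few genes, which is how they were chosen, and few reads. Their median was 14, 18, 15 and 15 genes, against 81, 80, 78 and 76 genes in the kept cells. The median total was 2377.5, 2358, 2373 and 2500 reads per low cell, against 24283, 19888, 19647.5 and 22514.5 reads per kept cell. All low cells together held 3.07%, 3.31%, 4.05% and 3.70% of the reads of their libraries. When every cell was thinned to 1068 reads, which left out 83, 245, 180 and 59 low cells and no kept cell, the median was 15, 20, 16 and 16 genes in the low and 73, 72, 72 and 71 genes in the kept cells. At that depth between 0.474% and 0.874% of the kept cells of a mouse had fewer than 40 genes. The counts are reads and not molecules, with a median of 71, 59, 65 and 80 reads for each gene detected in a low cell, so thinning reads removes copies before it removes molecules. The low cells stay under 40 genes after thinning by construction, so the thinned numbers are a description and say nothing of depth as a cause.

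The most widely read genes of the low cells were genes that nearly every cell uses. Fth1, the heavy chain of the iron store ferritin, had a read in 96.7%, 98.7%, 97.8% and 97.3% of the low cells. Gapdh, an enzyme of glycolysis, was read in 88.9%, 94.5%, 95.5% and 94.9% of them. In the kept cells Fth1 was read in at least 99.6% of the cells of a mouse and Gapdh in 98.6%, 99.3%, 94.6% and 95.1%. Both genes took a far larger part of the reads of the low cells. In CPM, the counts of a gene per 1000000 reads of all genes, Fth1 stood at 292988, 234932, 367285 and 298989 in the low cells and at 43184, 48724, 37073 and 45041 in the kept cells. Fth1 was the gene with most reads in 3673 low cells (64.7%), and Ctsd, the lysosomal protease cathepsin D, in 1142 (20.1%). The other widely read genes were Ctsd, Apoe, Lamp1, Cd63, Thy1, Cd9, Anxa5 and H2-K1, of which H2-K1, a class I histocompatibility gene, was read in 32.3% to 40.5% of low and in 97.8% to 99.5% of kept cells. The 6 housekeeping genes listed all took a larger share of reads in the low than in the kept cells in 4 of 4 mice, as did 21.7% of the 397 genes.

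Apoe and Thy1 stood out among the widely read genes because they were found in a larger share of low cells than of kept cells in all 4 mice. Apoe, the lipid carrier that astrocytes make in quantity and that microglia express near plaques, was read in 77.7%, 66.9%, 73.7% and 65.8% of the low cells. In the kept cells it was read in 68.1%, 49.9%, 36.1% and 35.7%, so that the gap was smallest in Abi3-/- mouse 1 and widest in Abi3+/+ mouse 1. Thy1, a surface protein of neurons and T cells, was read in 50.9%, 42.2%, 60.6% and 51.7% of the low cells, against 5.24% to 5.86% of the kept cells. Whether any Thy1 reads came from the Thy1 elements of the transgenes was not tested. In all, 31 of the 397 genes were read in a larger share of low than of kept cells in all 4 mice, although a low cell held far fewer genes.

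Of the 5 genes that mark immune cell types, only Trem2 was common in the low cells. Trem2, the lipid receptor of microglia, was read in 174 of 870, 341 of 1502, 425 of 1917 and 280 of 1385 low cells, which are 20%, 22.7%, 22.2% and 20.2%. In the kept cells the shares were 94.6%, 94.9%, 96.8% and 94.3%. The kept T cell-like, B cell-like and neutrophil-like clusters, which should lack Trem2, had a read of it in 4.72%, 9.66%, 9.76% and 8.73% of their cells at a median of 15916.5 to 17747.5 reads. The share in the low cells was above this background in each mouse, at a lower median depth. Thinned to 1068 reads, the Trem2 shares of the low cells were 21.1%, 24.8%, 23.3% and 20.7%.

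Reads of Cd3e, Cd79a and Ccr2 were rare in the low cells, which were also far less deeply read than the kept cells. Cd3e, a chain of the T cell receptor complex, was read in 1, 1, 2 and 1 low cells, which are 0.115%, 0.0666%, 0.104% and 0.0722%, against 4.05%, 1.53%, 1.74% and 2.09% of the kept cells. Kept cells outside the T cell-like cluster had a Cd3e read in 0.0222% (3 of 13497) at a median of 21335 reads, below the 0.0881% of the low cells at a median of 2399.5 reads. In the clustering of low and kept cells together, 15 low cells joined the T cell-like cluster. Over all mice 5 low cells and 296 kept cells had a Cd3e read. Cd79a, a part of the B cell receptor, was read in 2 low cells of Abi3-/- mouse 2 and 2 of Abi3+/+ mouse 2. It had no read in the low cells of the other 2 mice, where a count of 0 allows a share of cells with a read of up to 0.345% and 0.156%. This limit covers counting error only and says nothing of cells that express the gene without a read. In all 4 mice 58 kept cells had a Cd79a read. Ccr2, the chemokine receptor of monocytes, was read in 1, 1, 0 and 2 low cells, against 2.50%, 2.20%, 3.06% and 2.34% of the kept cells. For the 0 the floor allows up to 0.156% and the interval up to 0.192%.

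S100a8, a calcium-binding protein of neutrophils, had a share in the low cells that followed the library. It was read in 8, 89, 10 and 44 low cells, which are 0.920%, 5.93%, 0.522% and 3.18%. Kept cells outside the neutrophil-like cluster had it in 0.345%, 6.27%, 0.871% and 2.14%, at a median of 19647.5 to 24296.5 reads. The 2 libraries with more S100a8 among low cells were also those with more among the other kept cells, and in Abi3-/- mouse 2 and Abi3+/+ mouse 1 the low cells were below that background. S100a9, the partner of S100a8, was read in 2, 6, 0 and 4 low cells, and 12 low cells in all had reads of 2 or more of the 6 neutrophil genes. S100a8 reads were found in 11 of the 13 clusters of low cells described below. In the clustering of low and kept cells together, a cluster of 70 cells, 68 of them low cells, was led by S100a8, Mmp9 and S100a9, with S100a8 in 78.6%, Thy1 in 51.4% and a median of 12 genes, and 39 and 24 of its cells came from Abi3-/- mouse 2 and Abi3+/+ mouse 2. The part of free RNA in these reads was not tested.

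**Figure D2:**
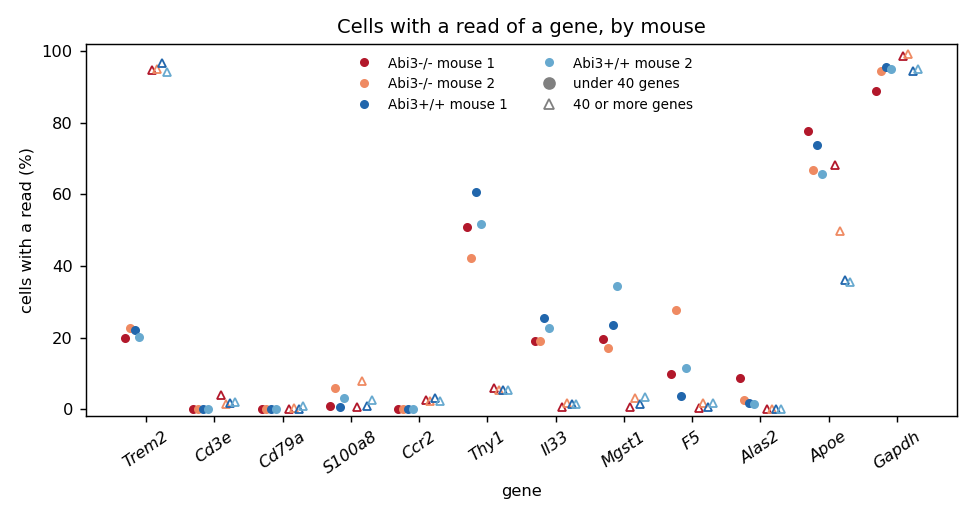
Cells with at least 1 read of a gene (y axis, percent of cells) for 12 genes (x axis), with 1 colour per mouse, filled circles for the cells under 40 genes and open triangles for the kept cells. Trem2 is read in 94.3% or more of kept and in 20% to 22.7% of low cells, while Thy1, Il33, Mgst1, F5 and Apoe are higher in the low cells of each mouse.

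The share of reads was also compared between low and kept cells. The ratio was taken per mouse as log2 of CPM plus 10 in the low over the kept cells, so it understates the ratio of rare genes. Of the 397 genes, 86 (21.7%) had a larger share of the reads in the low cells in 4 of 4 mice and 200 (50.4%) a smaller share, with a median of -0.78. The highest and lowest ratios were taken among the 170 genes with a read in at least 5% of low or of kept cells in every mouse, a filter that a gene can pass through 1 of the 2 sets alone. Since the reads of a library add up to a fixed total, the large share of Fth1 alone lowers the ratio of other genes. The 10 highest ratios belonged to Il33, Trib2, Ncam1, Cd38, Vegfa, Mgst1, Pik3ip1, Rora, Fyn and Tfrc. Of these, 4 are on the ependymal or astrocyte list (Trib2, Ncam1, Vegfa and Mgst1) and Tfrc is on the erythroid list.

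Il33, an alarmin stored in the nuclei of astrocytes and oligodendrocytes, was read in 18.97%, 19.1%, 25.6% and 22.6% of low and in 0.689% to 1.71% of kept cells. Its log2 ratio was 6.65 ± 0.57 (SD, n = 4 mice). Mgst1, a membrane glutathione transferase, was read in 19.7%, 17.0%, 23.5% and 34.4% of low cells, with a log2 ratio of 5.74 ± 1.33, lowest in Abi3-/- mouse 2 at 3.91. Vegfa, the vascular growth factor, was read in 16.2%, 15.9%, 20.6% and 21.9% of low cells, with a ratio of 5.77 ± 0.64. Trib2, a pseudokinase, had a ratio of 6.33 ± 0.63, and Ncam1, the neural cell adhesion molecule, one of 6.11 ± 1.06. Cd38, an enzyme that consumes NAD, reached 5.83 ± 0.40. Fyn, a kinase of the Src family used by neurons, oligodendrocytes and T cells, was read in 26.9%, 17.4%, 31.7% and 29.5% of low cells and had a ratio of 4.11 ± 0.46. For each of the 10 genes the lowest share of low cells in any mouse was above the highest share of kept cells, a separation that the choice of the genes by their ratio largely fixes.

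F5, coagulation factor V, varied most between mice among these genes. It was read in 9.77%, 27.8%, 3.70% and 11.6% of low cells and in 0.302% to 1.67% of kept cells. The share in Abi3-/- mouse 2 was the highest and that in Abi3+/+ mouse 1 the lowest, so the genotypes overlapped. The ependymal or astrocyte list holds F5, Thbd, Mgst1, Vegfa, Ncam1, Lmna, Tgfb3 and Trib2. All 8 had a larger share of reads in the low cells in 4 of 4 mice, against 21.7% of all genes. Of them, 4 did not pass the filter, namely F5, Thbd, Lmna and Tgfb3. All but Lmna were also among the 10 leading genes of a cluster of 167 kept cells, at a median of 45 genes. The list was chosen with results of these data known, so this count is a description and no support for a cell type. The summed level of the list was 22969 to 34629 CPM in the low cells of a mouse against 220.3 to 1099 in the kept cells. Reads of 2 or more of its genes were present in 19.7%, 22.3%, 21.1% and 27.7% of the low cells.

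The genes with the lowest ratios included cytokines, chemokines and receptors of inflammation. Among them were Ccl2, Tnf, Cd300a, Il6, Tmem173, Il1a, Rgs1, Tnfrsf1b and Il7r. Ccl2, a chemokine that attracts monocytes, was read in 0, 4, 7 and 2 low cells, against 13.3%, 15.1%, 13.4% and 17.1% of kept cells. Tnf, the inflammatory cytokine, was read in 0.345%, 0.466%, 0.261% and 0.433% of low cells and in 15.5% to 23.3% of kept cells, a log2 ratio of -4.53 ± 0.46. Counted over every member, filter or not, all 6 genes of the chemokine and cytokine list and all 7 immediate early genes had a smaller share of reads in the low cells in 4 of 4 mice, against 50.4% of all genes. Egr1 was read in 5.75% to 8.87% of low and in 57.6% to 74.0% of kept cells. All 8 microglia genes, all 6 class II histocompatibility genes, 7 of the 9 T cell genes and 7 of the 8 NK cell genes were likewise lower in 4 of 4 mice. For the B cell list it was 6 of 10, a share near that of all genes.

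**Figure D3:**
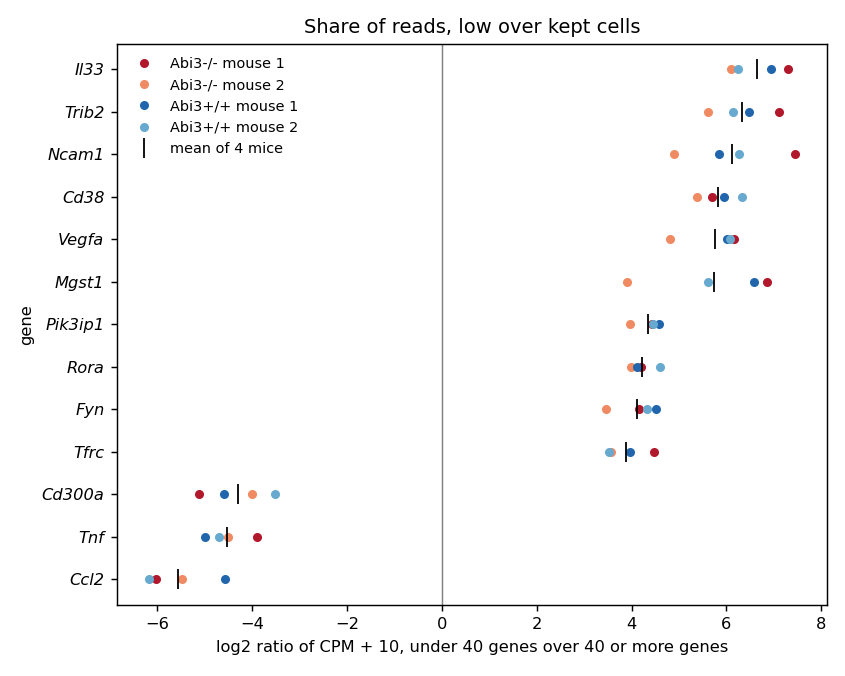
Log2 ratio of CPM plus 10 in the low over the kept cells (x axis) for the 10 genes with the highest and the 3 with the lowest mean ratio (y axis), with 1 point per mouse and a bar at the mean. Every point of the upper 10 genes lies above 0 and every point of the lower 3 below 0, as the choice of these genes requires.

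The share of cells that the limit removed differed widely between marker genes, also within 1 list. Of the barcodes with an Alas2 read, 92.3% were low cells (167 low and 14 kept). Alas2 is the first enzyme of haem synthesis in red cell precursors. The other genes of the erythroid list had lower shares, with 42.2% for Tfrc, the transferrin receptor, and 4.84% for Slc25a37 (331 low and 6511 kept), and of the barcodes with reads of 2 or more of the 3 genes 25.5% were low cells. The share was 86.5% for Il33 (1255 low and 196 kept), 85.6% for Ncam1, 84.0% for Trib2, 82.1% for F5 (734 and 160), 80.4% for Mgst1 and 79.7% for Thy1 (2954 and 751). Of the barcodes with reads of 2 or more ependymal or astrocyte genes, 91.0%, 76.7%, 88.0% and 81.8% were low cells. By contrast 8.48% of the Trem2 barcodes (1220 and 13160), 1.66% of those with Cd3e, 1.14% of those with Ccr2 (4 and 348) and 0.741% of those with Tnf were low cells. For reads of 2 or more microglia genes the shares were 8.64%, 8.32%, 12.6% and 9.39%.

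**Figure D4:**
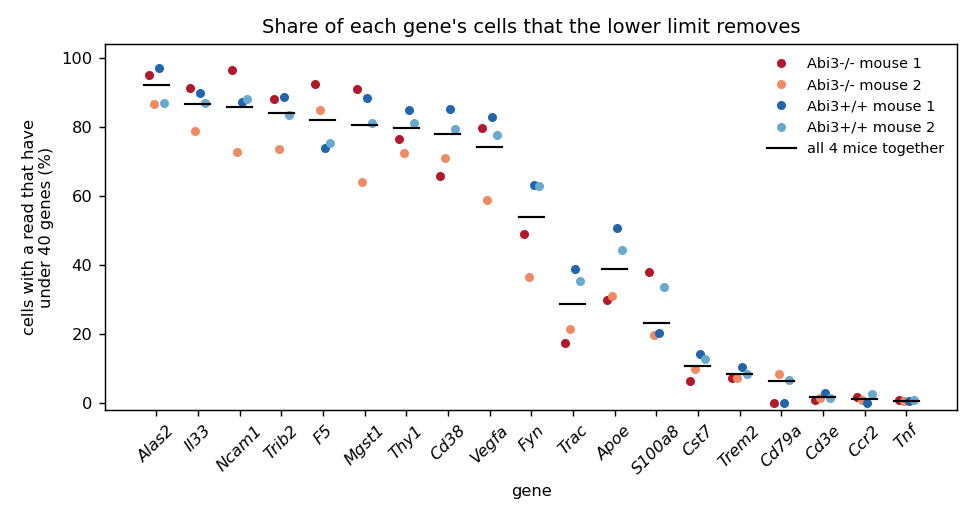
Share of the cells with a read of a gene that had fewer than 40 genes (y axis, percent, of low and kept cells together) for 19 genes (x axis), with 1 point per mouse and a bar for all 4 mice together. The bars of Alas2, Il33, Ncam1, Trib2, F5 and Mgst1 lie between 80.4% and 92.3%, and those of Cd3e, Ccr2 and Tnf at 1.66% or less.

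The low cells were divided by their number of genes, which the rule used, so the share with any 1 gene or with 2 or more genes of a list tends to rise with the band by construction. Of the 961 low cells with 1 to 9 genes, 57.2% had a Thy1 read, 13.9% an Alas2 read and 5.62% a Trem2 read. Of the 2601 with 10 to 19 genes, 60.1% had Thy1 and 17.1% Trem2. Reads of 2 or more ependymal or astrocyte genes were in 1.25% and 9.11% of these bands but in 43.3% of the 1260 cells with 20 to 29 genes and in 58.6% of the 852 cells with 30 to 39 genes. The Trem2 share was 30.9% and 38.9% in the same 2 bands. The shares with Alas2 and Thy1 were lower in the last band than in the first, at 0.352% and 34.4%.

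Just inside the limit, at 35 to 39 genes, were 41, 127, 113 and 81 cells, and just outside it, at 40 to 44 genes, 30, 103, 73 and 70 cells. Trem2 was read in 53.7%, 52.0%, 50.4% and 43.2% of the cells inside and in 80.0%, 75.7%, 76.7% and 60.0% of those outside. Reads of 2 or more ependymal or astrocyte genes were in 48.6% of the cells inside and 27.2% of those outside over all mice. Cells with either kind of read were thus found on both sides of the limit.

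Clustering of the low cells gave 13 clusters of 25 to 1089 cells. A cluster was named where at least 3 markers of 1 list had a read in at least 50% of its cells and a marker of that list was among its 10 leading genes by fold, a rule set after the values were seen. By this rule 2 clusters received a name and 4675 low cells stayed in unnamed clusters, which are called by their leading genes. The leading genes define the clusters and are no finding.

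The microglia-like cluster held 407 low cells, which were 56, 158, 99 and 94 cells or 6.44%, 10.5%, 5.16% and 6.79% of the low cells of a mouse. Its cells had a median of 32 genes and 7312 reads, the deepest of the 13 clusters. Trem2 was read in 92.1%, C1qa in 92.4% and C1qb in 79.6% of them, and its leading genes were Cst7, Itgax and Trem2. Cst7, which encodes the protease inhibitor cystatin F, and Itgax, an integrin, are known from microglia near plaques. Cx3cr1, the fractalkine receptor of microglia, was read in 22.4% of the cluster. A larger cluster led by Itgam (1089 cells) had Trem2 in 46.7% and C1qa in 50.6% of its cells at a median of 17 genes, but Thy1 in 67.5% and Il33 in 24.8%, and stayed unnamed. These 2 clusters held 375 and 509 of the 1220 low cells with a Trem2 read.

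The ependymal or astrocyte-like cluster held 592 low cells, 74, 79, 261 and 178 per mouse, or 8.51%, 5.26%, 13.6% and 12.9%. Cd38 was read in 82.9% of its cells, Pik3ip1, an inhibitor of PI3 kinase, in 82.4%, Vegfa in 85.1%, Mgst1 in 79.7%, Trib2 in 66.6%, Ncam1 in 62.8% and Apoe in 99.0%. The list members F5 and Thbd were read in 0.676% and 0% of its cells, and Thy1 and Il33, which are not on the list, in 47.3% and 41.7%. Its share was lower in each Abi3-/- mouse than in either Abi3+/+ mouse. That gap was not tested, since the genes that define the cluster also differed between the mice. The same held for the cluster led by Thy1 with Fth1 and the one led by Ccl5. The clusters led by Alas2, by H2-Eb1 and by Ube2c, described below, went the other way, with a larger share in each Abi3-/- mouse. None of these gaps was tested, and the genotypes overlapped in the rest of the 13 clusters. A separate cluster led by F5 (763 cells) had F5 in 92.5%, Lgals1, the lectin galectin 1, in 85.5% and Mgst1 in 44.95% of its cells, at a median of 24 genes. It made up 9.43%, 28.4%, 4.38% and 12.3% of the low cells of the mice, so that 426 of its cells came from Abi3-/- mouse 2. Only 1.83% of it had a Thy1 read.

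Several clusters of low cells had a Thy1 read in most of their cells. The clusters led by Thy1 with Il33 (1031 cells) and Thy1 with Fth1 (845 cells) had Thy1 in 72.4% and 74.4% of their cells, at medians of 12 and 8 genes. A cluster led by Ccnd2 and Egr1 (560 cells) had Thy1 in 58.8% and Il33 in 32.7%. Their panel genes are few and shared by several brain cell types, and no list used here names them. Over all low cells 2890 (50.9%) did not reach reads of 2 genes for any cell type list, and of these 61.6% had a Thy1, 66.5% an Apoe and 7.23% a Trem2 read, at a median of 12 genes.

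The smaller clusters differed in how many of their cells carried the leading genes. A cluster of 96 cells had Alas2 in 97.9% and Slc25a37, the iron importer of mitochondria, in 77.1%, with a median of 4 genes and 2629 reads. A further 59 cells had both genes in 100% and Ube2c, a ubiquitin-conjugating enzyme, in 98.3%, at a median of 6 genes. Both stayed unnamed because 2 markers of the erythroid list reached most of their cells, with Tfrc, the transferrin receptor, in 1.04% and 18.6%. The 96 cells came as 51, 19, 15 and 11 from the mice. In all, Alas2 gave more than 50% of the reads of 69, 32, 26 and 14 low cells, and it took 6.003%, 1.52%, 1.17% and 0.999% of all reads of the low cells, highest in Abi3-/- mouse 1. Of the barcodes with fewer than 5 genes, 44 of 46, 12 of 16, 9 of 13 and 8 of 10 had an Alas2 read. A cluster of 42 cells was led by Thbd (78.6%), which encodes the thrombin receptor thrombomodulin, and Fn1 (88.1%), which encodes fibronectin, with Cd34 in 61.9%. A cluster of 83 cells was led by the class II genes H2-Eb1 (34.9%) and H2-Aa (42.2%), each a part of antigen presentation.

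**Figure D5:**
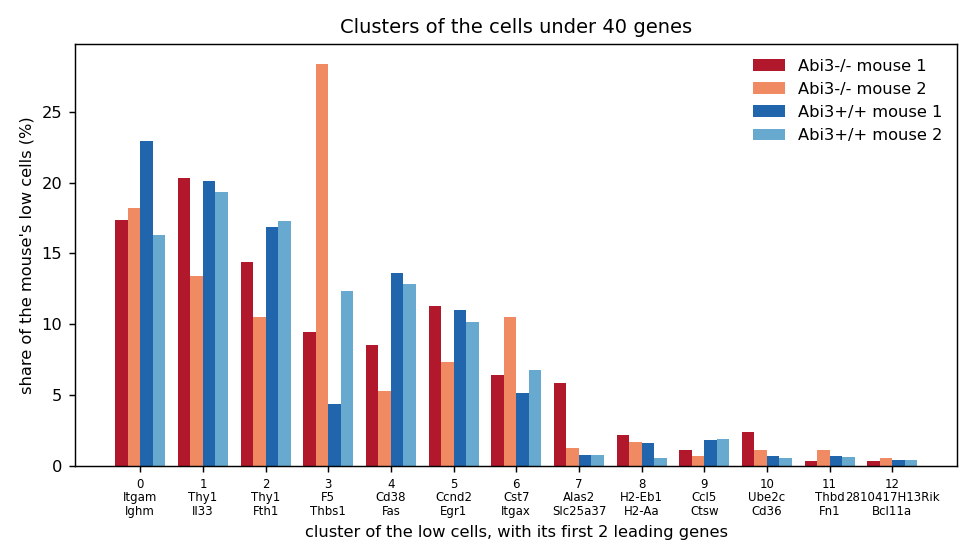
Share of a mouse's low cells (y axis, percent) in each of the 13 clusters (x axis, with the first 2 leading genes), with 1 bar per mouse. The cluster led by F5 reaches 28.4% in Abi3-/- mouse 2 against 4.38% in Abi3+/+ mouse 1, and the one led by Alas2 is largest in Abi3-/- mouse 1.

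Some lymphocyte genes were read in more low cells than Cd3e or Cd79a. Trac, the constant part of the T cell receptor alpha chain, was read in 20, 21, 46 and 42 low cells, which is 2.27% of them over all mice against 0.193% of the kept cells outside the T cell-like cluster. Of the 129 cells, 67 were in the ependymal or astrocyte-like cluster and 20 in a cluster of 82 cells led by Ccl5 (18.3%), Ctsw (12.2%) and Trbc2 (26.8%). That cluster held 4 of the 5 low cells with a Cd3e read, which are 4.88% of it, and 22 of the 32 with a Trbc2 read, while no cell of the ependymal or astrocyte-like cluster had a read of either. Igkc, the constant part of the kappa light chain, was read in 12, 61, 4 and 20 low cells, and 78 of these 97 cells were in the F5 cluster. Cd79a was read in 4 low cells. The part of free RNA in these reads was not tested.

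Low cells and kept cells fell mostly into different clusters when they were clustered together. The number of genes chose the low cells and the clustering used all genes, so the rule itself favours such a separation. The counts are therefore a description and do not show that the low cells are of other cell types. Of the 22 joint clusters, 7 consisted to 90% or more of low cells and held 5160 low cells (90.9%). Another 12 joint clusters were made to less than 10% of low cells and held 18 of them. Of the 407 cells of the microglia-like cluster, 311 (76.4%) joined a cluster led by Cst7 and Apoe in which 23.1% of the cells were low cells.

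Low cells with a microglial profile were set beside kept cells chosen by the same cut, reads of 4 or more of the 8 microglia genes. The cut took 11.4%, 12.8%, 9.86% and 7.80% of the low cells and 94.5%, 94.8%, 96.8% and 93.8% of the kept cells. They were 99, 193, 189 and 108 low cells and 2193, 4266, 3676 and 3006 kept cells. The low ones had a median of 26, 31, 28 and 29.5 genes, against 81, 80, 78 and 76 in the kept ones. The 8 genes chose these cells, so their own levels are given as a description only. The low ones also stay under 40 genes by the rule, which limits how many other genes each can show. Trem2 had a share of reads close to that of the kept cells, with a log2 ratio of 0.04 ± 0.23 (SD, n = 4 mice) that was positive in 2 of 4 mice. Cx3cr1 stood at -1.65 ± 0.37, Selplg, a ligand of selectins, at -1.85 ± 0.30, and Entpd1, an ATP-degrading enzyme, at -1.53 ± 0.39, each lower in 4 of 4 mice. Cx3cr1 was read in 24.2%, 25.4%, 23.8% and 13.9% of these low cells and in 94.3%, 88.6%, 92.9% and 76.1% of the kept ones.

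Of the 6 genes listed for disease-associated microglia (DAM), the state seen around plaques, 3 took a larger share of reads in the low microglial cells in 4 of 4 mice and 0 a smaller one, with a median log2 ratio of 0.72. Of all 397 genes 7.05% took a larger and 45.8% a smaller share in 4 of 4 mice in this comparison, with a median of -0.54. Cst7 had a log2 ratio of 1.86 ± 0.29, Apoe 1.84 ± 0.10 and Itgax 0.69 ± 0.38. The others differed in sign between mice, with 0.74 ± 2.04 for Spp1, -1.72 ± 2.28 for Csf1 and -0.07 ± 0.86 for Lilrb4a. Over all low cells the list was divided, with 2 genes higher and 2 lower in 4 of 4 mice and a median of -0.23. Outside the list, Fth1, the ferritin heavy chain, stood at 2.06 ± 0.47 and Lyz2, which encodes lysozyme, at 0.90 ± 0.11, both higher in 4 of 4 mice, and the chemokine Ccl3 at -1.12 ± 0.22, lower in 4 of 4. Cst7 was read in 38.4%, 66.3%, 36.5% and 55.6% of the low and 39.5%, 44.5%, 25.03% and 27.1% of the kept cells of this profile, higher in 3 of 4 mice. Thinned to 1068 reads, the shares with Cst7 were 38.8%, 66.7%, 36.8% and 55.6% against 37.1%, 43.0%, 24.2% and 26.2%. These traits were not limited to low cells. A cluster of 1078 kept cells, with a median of 55 genes, was led by Cst7, Apoe and Itgax. Cst7 was read in 91.8%, Apoe in 90.1% and Cx3cr1 in 53.8% of that kept cluster. Of the 7 immediate early genes, which respond to stimulation and to tissue dissociation, all 7 took a smaller share of reads in these low cells in 4 of 4 mice, against 45.8% of all genes, with a median log2 ratio of -3.93. Jun was read in 5.05%, 9.84%, 7.94% and 10.2% of the low against 67.9%, 73.8%, 79.0% and 77.0% of the kept cells, a log2 ratio of -3.65 ± 0.31. Junb stood at -4.48 ± 0.79 and Egr1 at -4.31 ± 0.75. Thy1 was read in 35.4%, 34.7%, 47.1% and 44.4% of these low cells and in 1.64% to 3.77% of the kept ones, and Il33 in 11.4% to 18.5%.

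Between genotypes the low cells were compared over mice. In edgeR's quasi-likelihood test on the reads of the low cells summed per mouse, 0 of 313 genes tested passed an adjusted p of 0.05 (0%), while 22 had an unadjusted p under 0.05, 7 of them higher in Abi3-/- mice. DESeq2 called 9 of 349 genes (2.58%) and limma on log2(CPM + 1) called 4 of 313 (1.28%), with 1 gene (Trbc1, 0 and 0 CPM in the Abi3-/- against 40.3 and 31.6 in the Abi3+/+ mice) called by both. The spread between mice of 1 genotype was wide, with a common dispersion of 0.813. In simulated counts of this design with 200 of 313 genes changed 4-fold, the edgeR test recovered 98.5% at a dispersion of 0.01 and 0% at 0.813, the measured spread.

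The 5 genes with the smallest p were Trdc, S100a10, H2-Aa, Pik3ip1 and Ybx3, none of which passed in edgeR. Of these, DESeq2 called Trdc (adjusted p = 2.6e-05) and H2-Aa (adjusted p = 0.0048), and limma none. Trdc, the constant part of the T cell receptor delta chain, stood at 25.8 and 4.01 CPM in the low cells of the Abi3-/- and at 464 and 477 in those of the Abi3+/+ mice. Its log2 fold change was -4.96 ± 1.06 (SE), with an adjusted p of 0.648 in edgeR. It was read in 2 and 1 against 46 and 36 low cells, scattered over 8 of the 13 clusters, with 1 cell in the cluster led by Ccl5, Ctsw and Trbc2. H2-Aa, a class II chain, stood at 665 and 316 against 97.0 and 56.3, a log2 fold change of 2.71 ± 0.60 with an adjusted p of 0.648 in edgeR. Pik3ip1 stood at 3334 and 2489 against 5820 and 5888, and S100a10, a partner of annexin A2, at 1202 and 1377 against 2598 and 2703. Ybx3, an RNA-binding protein, was at 1040 and 946 against 598 and 527. The groups did not overlap for these 5 genes, as for 111 of the 313 tested (35.5%), 31 higher and 80 lower in the Abi3-/- mice. No gene of any list passed in edgeR. Of the genes DESeq2 called, 6 belonged to a list, namely Alas2 (adjusted p = 0.0496), H2-Aa, Cd3d, Trbc1, Iglc3 and Vpreb3, and of those limma called 1 did, Trbc1. Several of these calls rested mostly on 1 mouse. Vpreb3 stood at 0 and 110 CPM in the Abi3-/- and at 0 in both Abi3+/+ mice, Iglc3 at 7.11 and 82.0 against 0 and 0, and Alas2 at 60032 and 15212 against 11673 and 9991. Of the 8 microglia genes 7 had a positive log2 fold change in edgeR, as had 141 of the 313 tested, with a median of 0.24 over the list and -0.10 over all genes tested. Other lists went either way. Positive were 5 of 6 class II genes (median 1.64), but 0 of 6 chemokine and cytokine genes (-0.22) and 2 of 9 T cell genes (-0.58).

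For the shares of low cells with a marker, the exact permutation test used cannot go below p = 0.333 with 2 mice per group. Over 15 comparisons, for the 5 genes and for reads of 2 or more genes of 10 cell type lists, every adjusted p was 1 in 2-sided exact permutation tests with Benjamini-Hochberg adjustment. Trem2 differed by 0.16 percentage points (21.4% ± 1.91 in the Abi3-/- and 21.2% ± 1.38 in the Abi3+/+ mice, SD, n = 2 each). S100a8 differed by 1.57 points with 3.42% ± 3.54 against 1.85% ± 1.88. For the ependymal or astrocyte list the difference was -3.41 points, with 21.0% ± 1.87 against 24.4% ± 4.61. The erythroid list, at 7.36% and 3.20% of low cells against 2.87% and 2.38%, was the only one of the 15 without overlap, with p = 0.333 in the exact permutation test before adjustment.

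The genes on which the description turns lie, in the GENCODE annotation of GRCm39, at chr17:48653429-48661175 (Trem2), chr1:163979289-164047846 (F5), chr9:43954332-43959880 (Thy1), chr19:29902483-29938933 (Il33), chr6:138117314-138133774 (Mgst1) and chrX:149330371-149353634 (Alas2). All 6 are protein-coding, and the panel counts reads per gene, not per position. Barcode sequences are drawn from a shared set, and 180 of them occurred in more than 1 library, in 93 low cells (1.64%) and 239 kept cells (1.73%).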

How the data were processed

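Cells of 4 brains were profiled with a targeted panel on the BD Rhapsody platform. The deposited tables hold whole counts of reads for each gene and barcode, which the authors obtained from the targeted pipeline of the BD Rhapsody platform with its distribution-based correction of errors. The submitters' processing notes name the build mm10, and the pipeline version is not given in the sources used here. The study's methods word the lower limit as 40 unique reads, and here it was applied to genes with a read, while the upper limit of 59300 reads was computed as the third quartile of the reads per barcode plus 1.5 interquartile ranges. The methods place that limit relative to the mean, and the quartile form was chosen because it gives the limit they state. The low cells, the lists and the tests were chosen with earlier results of these data known.

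Depth was 87117727, 150756771, 139841135 and 133496510 reads per library. Reads are not molecules, so intervals and floors (3 counts) cover counting error only. Nothing in the labels beyond 1 library per mouse describes repeats. For the genotype test, edgeR 4.0.16 was fitted to the sum of the low cells' reads in each mouse (TMM, filterByExpr, Benjamini-Hochberg). DESeq2 and limma were alternatives. The chi-square per degree of freedom between the 2 mice of a genotype was 1510 and 890, so no library was a copy. Clusters came from Seurat (counts scaled to 10000, all genes, 10 components, resolution 0.8). No doublet caller was run on cells with so few genes. Named genes were the 5 markers, the 10 most widely read, the 10 highest and 10 lowest ratios among genes in at least 5% of cells that kept their sign in 4 mice, the 5 smallest p, and up to 4 genes per list. One gene named by this rule is not reported here. The edgeR test was tested on simulated data.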

Additional observations from a re-analysis of the deposited data

Results flagged for a closer look

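The log2 ratio of the reads of Cst7 in low over kept cells had opposite signs in the 2 genotypes, with 0.06 for Abi3-/- mouse 1, 0.12 for Abi3-/- mouse 2, -0.36 for Abi3+/+ mouse 1 and -0.09 for Abi3+/+ mouse 2, so that the group means lay 0.32 apart. The difference was not tested, and the share of all genes whose ratio splits in this way is not given here. For the levels in the low cells, the genotypes did not overlap in 111 of the 313 genes tested (35.5%). The ratio of the Apoe reads, positive in 4 of 4 mice, showed no such split.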

How the results depend on the processing

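The difference in the share of barcodes under the limit (Abi3-/- minus Abi3+/+) was -4.25 points with a limit of 30 genes, -5.08 with 50 genes and -4.69 without the upper limit or with genes counted from 2 reads, and it ranged from -6.53 to -2.85 without 1 mouse, the latter without Abi3+/+ mouse 1. The count of genes between genotypes in edgeR was 0 in the main fit, with library size alone, without the filter, with limits of 30 and 50 genes, without shared barcodes, and with the replicate block (24 genes with an unadjusted p under 0.05). DESeq2 called 9 and limma 4 genes. Without 1 mouse the edgeR count ranged from 0 to 6, with 4 without Abi3-/- mouse 1, 6 without Abi3-/- mouse 2 and 3 without Abi3+/+ mouse 2. The lone mouse of a group is then assumed to vary like the others. The cause was not tested. The replicate numbers did not pair the mice (correlation of their deviations -0.05). No fit with the block was made for the marker shares, which were compared by permutation over mice.

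Differences in marker shares (Abi3-/- minus Abi3+/+, in percentage points), none of which passed, changed sign as follows. With a limit of 30 genes, Trem2 came to -1.44 and the NK cell list to 0. With a limit of 50 genes, Cd3e came to -0.030, Ccr2 to -0.030, the microglia list to 0.76, the NK cell list to -0.0024 and the B cell list to -0.25. Thinned, the microglia list came to 0.88 and the B cell list to -0.012. Without shared barcodes, Cd3e came to -0.031. Leaving out 1 mouse at a time gave -1.19 to 1.51 for Trem2, -0.022 to 0.027 for Cd3e, -0.078 to 0.067 for Cd79a, -0.93 to 4.08 for S100a8 and -0.054 to 0.091 for Ccr2. It gave -2.69 to 2.46 for the microglia, -0.31 to 0.034 for the T cell, -0.026 to 0.089 for the NK cell, -0.071 to 0.12 for the B cell, -0.036 to 0.079 for the plasma cell, -0.0074 to 0.23 for the neutrophil and -0.088 to 0.11 for the monocyte or macrophage list. The ependymal or astrocyte list (-6.67 to -0.15) and the erythroid list (0.57 to 4.73) kept their sign. The log2 fold change of the Trem2 reads between genotypes ranged from -0.22 to 0.42.

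Set beside cells with 40 to 49 genes, 19 genes rather than 31 were read in a larger share of low cells in all 4 mice. Clustered with the kept cells, the clusters named microglia-like held 0 low cells, a count that depends on the naming rule. The joint cluster led by Cst7 and Apoe held 340 low cells, with Trem2 in 98.6% and C1qa in 97.8% of its cells. A joint cluster led by Il33 and Thy1, with Trem2 in 62.1%, held 758 low cells. Both stayed unnamed because no microglia list gene was among their 10 leading genes. A count of 0 limits only the share of cells with a read. Doublets were not called.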
